A study of Mus musculus with 9 samples.

Results

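Chemokine ligands are small secreted proteins that guide the movement of cells. The members described here are all genes on the array whose symbol is Ccl, Cxcl, Xcl or Cx3cl followed by a number, found by the deposited probe descriptions or through the RefSeq accession of the probe. There were 36 such probes for 36 genes among 20868 gene probes, which name 14593 genes. They comprised 20 CC, 14 CXC, 1 XC and 1 CX3C ligands, classes that are named for the spacing of the first cysteines. Of these, 1 was found only through its RefSeq accession (Cxcl17) and 3 only through the description (Cxcl4, also called Pf4, Cxcl7, also called Ppbp, and Cxcl11).

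The study hybridised Cy3-labelled RNA from 9 mouse samples to single-colour arrays, 1 array for each. Induced pluripotent-like (iPS) clones had been made from mouse embryonic fibroblasts (MEF) carrying a bgeo knock-in at Fbx15, by retroviral transfer of 4 factors (1 clone), 10 factors (1 clone) or 3 factors (2 clones), with G418 selection for 16 days under ES cell conditions. The labels do not name the factors, and each clone is 1 clone on 1 array. The embryonic stem (ES) cells were Fbx15-null and were grown on STO cells, a mouse fibroblast line that serves as a feeder layer. The MEF came from Fbx15-null E13.5 embryos. The other fibroblast-derived samples were bgeo knock-in MEF that received 4 factors without G418 and gave no iPS clones (unselected MEF), NIH3T3 fibroblasts transformed by a retrovirus for the active HRas mutant HRasV12, and a spontaneously immortalised line of wild-type MEF that carries a retroviral transgene (immortalised MEF). All iPS clones and the unselected MEF therefore share the knock-in allele and the retroviral transfer. The samples of a class are different clones or different fibroblast populations, and no sample has a repeat array. A p-value here therefore reflects the spread between unlike samples, with any technical spread in it, and with 9 arrays the precision is limited. Whether the samples of a class were grown as separate cultures is not stated.

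Chemokines act through G protein-coupled receptors, and many ligands share a receptor. Inflammatory members are switched on by cytokines and microbial products, largely through the transcription factor NF-kappaB, which binds kappaB sites, or through interferon signalling. Homeostatic members such as Cxcl12 are made without such a stimulus and place stem cells and leukocytes in tissues. Fibroblasts are a well-known source of both kinds, and serum and growth factors can induce Cxcl1 and Ccl2 in them.

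Levels are given as log2 of the signal relative to the 75th percentile of the array. A value of 0 is that percentile, and the lowest value, -4.78, is a floor. A probe counts as well above background when the scanner program says so. Levels compare samples for 1 probe and do not compare genes.

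The promoters of Cxcl1, Cxcl2 and Cxcl10 are shown because these genes lie on chromosome 5, are textbook targets of NF-kappaB and differed in what the arrays measured: Cxcl1 set the clones apart, Cxcl10 was highest in MEF and Cxcl2 was not well above background anywhere. Each sequence is the 250 bases before the RefSeq start in GRCm38.p6, written 5′ to 3′ on the gene's strand, at chr5:90890995-90891244 on the plus strand for Cxcl1, chr5:90903649-90903898 on the plus strand for Cxcl2 and chr5:92348890-92349139 on the minus strand for Cxcl10. Capitals mark kappaB matches and, in Cxcl10, first an element of interferon-responsive promoters (GAAA, any 2 bases, GAAA).
Cxcl1: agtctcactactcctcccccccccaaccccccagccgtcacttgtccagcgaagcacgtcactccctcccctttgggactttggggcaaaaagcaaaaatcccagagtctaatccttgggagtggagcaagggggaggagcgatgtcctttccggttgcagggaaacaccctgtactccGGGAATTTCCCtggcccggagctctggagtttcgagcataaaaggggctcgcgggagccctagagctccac
Cxcl2: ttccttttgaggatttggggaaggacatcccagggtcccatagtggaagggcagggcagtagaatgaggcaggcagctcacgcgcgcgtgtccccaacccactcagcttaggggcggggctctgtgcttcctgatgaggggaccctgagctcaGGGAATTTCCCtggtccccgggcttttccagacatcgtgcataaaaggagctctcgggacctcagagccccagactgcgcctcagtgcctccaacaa
Cxcl10: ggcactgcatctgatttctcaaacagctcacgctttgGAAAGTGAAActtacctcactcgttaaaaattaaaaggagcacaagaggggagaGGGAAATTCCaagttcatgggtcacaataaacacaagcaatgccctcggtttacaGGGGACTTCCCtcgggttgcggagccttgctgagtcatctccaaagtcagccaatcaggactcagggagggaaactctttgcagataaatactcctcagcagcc

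Cxcl1 and Cxcl2, neighbours with 0 protein-coding genes between them in the RefSeq table, hold the same kappaB stretch, GGGAATTTCCC. It ends 60 bases before the start of Cxcl1 and 86 before that of Cxcl2. Cxcl10 holds GGGAAATTCC, which ends 149 bases before its start, and GGGGACTTCCC, which ends 93 bases before it, and neither overlaps the interferon element. RefSeq promoters were found for 25 members. A kappaB match on either strand was present for 6 of them (Ccl1, Ccl9, Ccl20, Cxcl1, Cxcl2 and Cxcl10), and in 7.25% of 32851 mouse promoters of this length. The interferon element was present for 3 members (Ccl19, Cxcl10 and Cxcl14), and in 2.98% of all promoters. The motif TATAAA was present for 9 members, and in 12.4% of all promoters. A match describes the sequence and does not show binding.

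Of the 36 members, 24 (66.7%) were well above background on at least 1 array, against 71.9% of all probes. On all 9 arrays this held for 7 members (19.4%), namely Ccl2, Ccl7, Ccl9, Ccl27a, Cx3cl1, Cxcl1 and Cxcl12, against 42.4% of all probes. The number of members well above background was 23 in the unselected MEF and 19 in MEF. It was 17 in the 10-factor clone, 15 in each clone of 3 factors and 12 in the 4-factor clone. ES had 12, the immortalised MEF 10 and the NIH3T3 HRasV12 cells 9. Among the 24 measured members, 16 had their highest value in MEF or the unselected MEF, as did 25.7% of all probes, 5 had it in an iPS clone (26.4% of all probes) and 0 in ES (21.4% of all probes). None of the 36 probes was saturated on any of the 9 arrays.

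**Figure D1:**
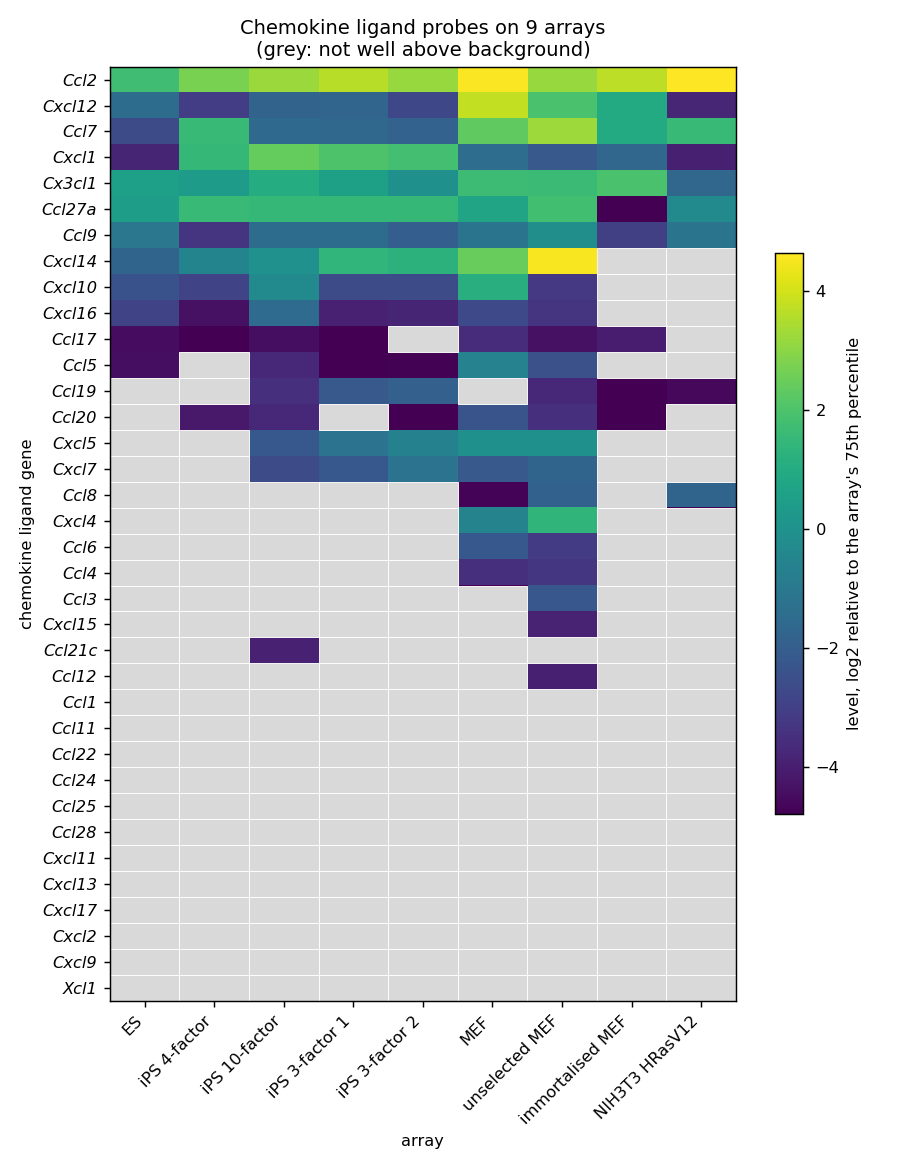
Level of the 36 chemokine ligand probes (rows) on the 9 arrays (columns), as log2 relative to the array's 75th percentile, with grey for values not well above background. Rows run from the 7 genes measured on all 9 arrays to the 12 measured on none, and the unselected MEF column has the most coloured cells (23).

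The 12 members not well above background on any array were Ccl1, Ccl11, Ccl22, Ccl24, Ccl25, Ccl28, Cxcl2, Cxcl9, Cxcl11, Cxcl13, Cxcl17 and Xcl1. They include the eosinophil attractants Ccl11 and Ccl24, the interferon-induced pair Cxcl9 and Cxcl11, the B cell attractant Cxcl13 and the lymphocyte product Xcl1. Each of these 12 stood at the floor on every array, so no difference between samples was detectable for them.

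Cxcl1, a neutrophil attractant that signals through the receptor Cxcr2, was the 1 member that separated the clones from all fibroblast-derived samples. Its level was 1.99 and 1.80 in the 3-factor clones, 2.39 in the 10-factor and 1.47 in the 4-factor clone. It was -1.42 in MEF, -2.14 in the unselected MEF, -1.68 in the immortalised MEF and -3.94 in the NIH3T3 HRasV12 cells. ES stood at -3.79, so all 4 clones were above every other array and ES was among the lowest. The clones exceeded the 4 fibroblast-derived samples by 4.21 ± 0.54 (SE, n = 4 and 4) on the log2 scale, or 18.5-fold (limma adjusted p = 0.00515). They exceeded MEF by 3.33 ± 0.39 (n = 4 and 1), or 10.1-fold (limma adjusted p = 0.0206), and ES by 5.71 ± 0.39 (n = 4 and 1), or 52.2-fold (limma adjusted p = 0.00546).

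The size of the Cxcl1 difference from the fibroblast-derived samples lay between 3.01 and 4.50 over the main setting and its alternatives, and it was called in 17 of 19. The calls were lost with scan as a block and within scan 1, both of which rest on the 4- and 10-factor clones and MEF. The difference was 3.35 there (limma adjusted p = 0.156 and 0.218). Against MEF it was called in 10 of 15 settings, and against ES in 14 of 15. Its receptor gene Cxcr2 was at or near the floor on all 9 arrays.

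The other ligands of Cxcr2 on the array, Cxcl5 and Cxcl7, did not share this pattern, and Cxcl2 was at the floor throughout. Cxcl5 was at -0.04 in MEF and -0.05 in the unselected MEF, and in the 3-factor clones at -1.19 and -0.65, with the 10-factor clone at -2.20. It was not well above background in the 4-factor clone, ES, the immortalised MEF and the NIH3T3 HRasV12 cells. Cxcl7, a platelet protein whose cleaved forms attract neutrophils, was measured on the same 5 arrays, at -2.16 in MEF, -1.73 in the unselected MEF, -2.19 and -1.20 in the 3-factor clones and -2.59 in the 10-factor clone. For both genes clones and fibroblast-derived samples overlapped, and neither was called in any of the 4 limma comparisons.

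Comparing the 4 clones with the 4 fibroblast-derived samples, 12939 probes were tested, of which 4.19% were called higher and 4.73% lower in the clones. Of 20 members that passed the filter on dim probes, 1 was called higher (Cxcl1) and 0 lower. At an unadjusted p under 0.05 there were 2 members, against 25.9% of all probes tested. Of the 24 measured members, the groups did not overlap for 1 that was higher in the clones (Cxcl1) and for 0 that were lower, where 7.5% and 8.39% of all measured probes did not overlap. The median difference of the tested members was -0.50, against 0.02 over all probes tested. Ccl7, a monocyte attractant, missed the threshold at -2.88 ± 0.83 (limma adjusted p = 0.0721). Scan as a block, which leaves the 4- and 10-factor clones against MEF, called 6 members lower (Ccl4, Ccl5, Ccl6, Ccl20, Cxcl4 and Cxcl14) and 0 higher, with 3.35% and 2.36% of all probes. Of the 6, Ccl4, Ccl6 and Cxcl4 had all clones at the floor and passed the filter only through MEF and the unselected MEF. Their calls are therefore not read as a result, which leaves Ccl5, Ccl20 and Cxcl14. Cxcl14 turned direction, from 1.18 ± 2.14 without the block (limma adjusted p = 0.752) to -2.71 with it (limma adjusted p = 0.0209).

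**Figure D2:**
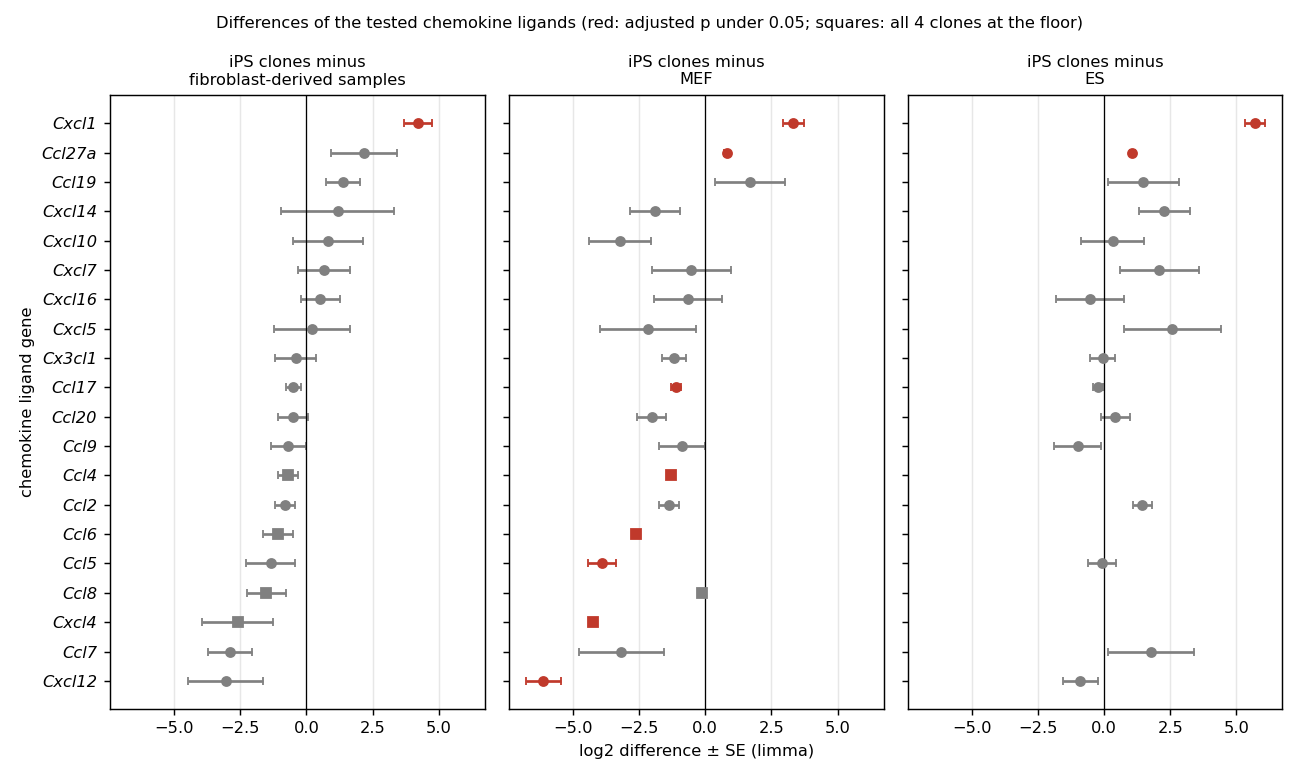
Difference in level (log2, with its SE from limma) of 20 chemokine ligands between the 4 iPS clones and, from left to right, the 4 fibroblast-derived samples, MEF and ES, with red for adjusted p under 0.05 and squares where all 4 clones were at the floor. Cxcl1 lies to the right of 0 in all panels, at 4.21, 3.33 and 5.71, and Cxcl12 is at -6.11 against MEF.

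Against MEF alone, 4.71% of 13042 probes were called higher and 9.32% lower in the clones. Among 20 tested members 8 were called, 2 higher (Cxcl1 and Ccl27a) and 6 lower (Cxcl12, Ccl5, Ccl17, Ccl4, Ccl6 and Cxcl4). Of the 6, Ccl4, Ccl6 and Cxcl4 stood at the floor in all 4 clones and passed the filter only through the MEF array, so their calls are fixed by the filter and are not read as a result. Among the 16 tested members with a clone above the floor, 2 were called higher and 3 lower, where 4.92% and 6.46% of such probes were. MEF was 1 array, which the fit assumes to vary as the clones do. With the spread taken from all 9 arrays 0 members were called (7 at an unadjusted p under 0.05, as were 17.2% of all probes), and averaging the 3-factor pair gave 3. Leaving out either 3-factor clone also gave 3 (Ccl4, Ccl6 and Cxcl4, all at the floor in the clones), so no call with a clone above the floor was left there.

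Cxcl12, the homeostatic ligand of Cxcr4 and Ackr3 that stromal cells make, had a level of 3.78 in MEF, 1.91 in the unselected MEF and 0.98 in the immortalised MEF. The 3-factor clones had -1.72 and -2.73, the 10-factor clone had -1.80 and the 4-factor clone had -3.06. ES was at -1.44 and the NIH3T3 HRasV12 cells at -3.78. The 3 MEF-type samples were thus above all clones and ES, while the NIH3T3 cells were below every other array. The clones differed from MEF by -6.11 ± 0.67 (n = 4 and 1), or 69.1-fold lower (limma adjusted p = 0.018). This Cxcl12 call against MEF was lost in 5 of 14 alternatives. Against all 4 fibroblast-derived samples the difference was -3.05 ± 1.43 (limma adjusted p = 0.223), and it was called lower only when the NIH3T3 cells were left out. In bulk RNA, fewer cells that make a transcript and less of it per cell cannot be told apart.

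Fibroblast markers were measured beside Cxcl12. The 10 measured markers summed to between 766% and 1952% of the 75th percentile signal in the clones and to 1554% in ES, and to between 11772% and 65491% in the fibroblast-derived samples. The NIH3T3 HRasV12 cells, which had the lowest Cxcl12, summed to 11772%, the lowest of the fibroblast-derived samples and above every clone and ES. That this was below the immortalised MEF (20829%) rests on Col1a2, at 5.92 against 7.62. Prrx1 was also lower in the NIH3T3 cells, at 2.37 against 2.49, and all other markers were higher there than in the immortalised MEF. Of the 10 markers, 4 fell against the fibroblast-derived samples and 7 against MEF, of which Lum had all clones at the floor. The call of Lum against MEF is therefore fixed by the filter and is not read as a result. The shares of all probes that fell were 4.73% and 9.32%. The part of the markers in the Cxcl12 result was not tested. In ES, which were grown on STO cells, 9 of the 10 were well above background, and in the clones 8 or 9. How much of any chemokine signal of ES came from the feeder cells, or of the clones from fibroblasts among them, was not tested.

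Cxcl14, a ligand of skin, epithelia and fibroblasts, spanned the widest range. Its level was 4.55 in the unselected MEF and 2.43 in MEF, but it was not well above background in the immortalised MEF and the NIH3T3 HRasV12 cells. The 3-factor clones had 1.42 and 1.26, the 10-factor clone had -0.01, the 4-factor clone had -0.53 and ES had -1.74. The clones therefore lay below MEF and the unselected MEF and above the 2 other fibroblast-derived lines. The 3-factor clones exceeded the other clones by 1.61 ± 0.24 (n = 2 and 2), which missed the threshold (limma adjusted p = 0.123).

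**Figure D3:**
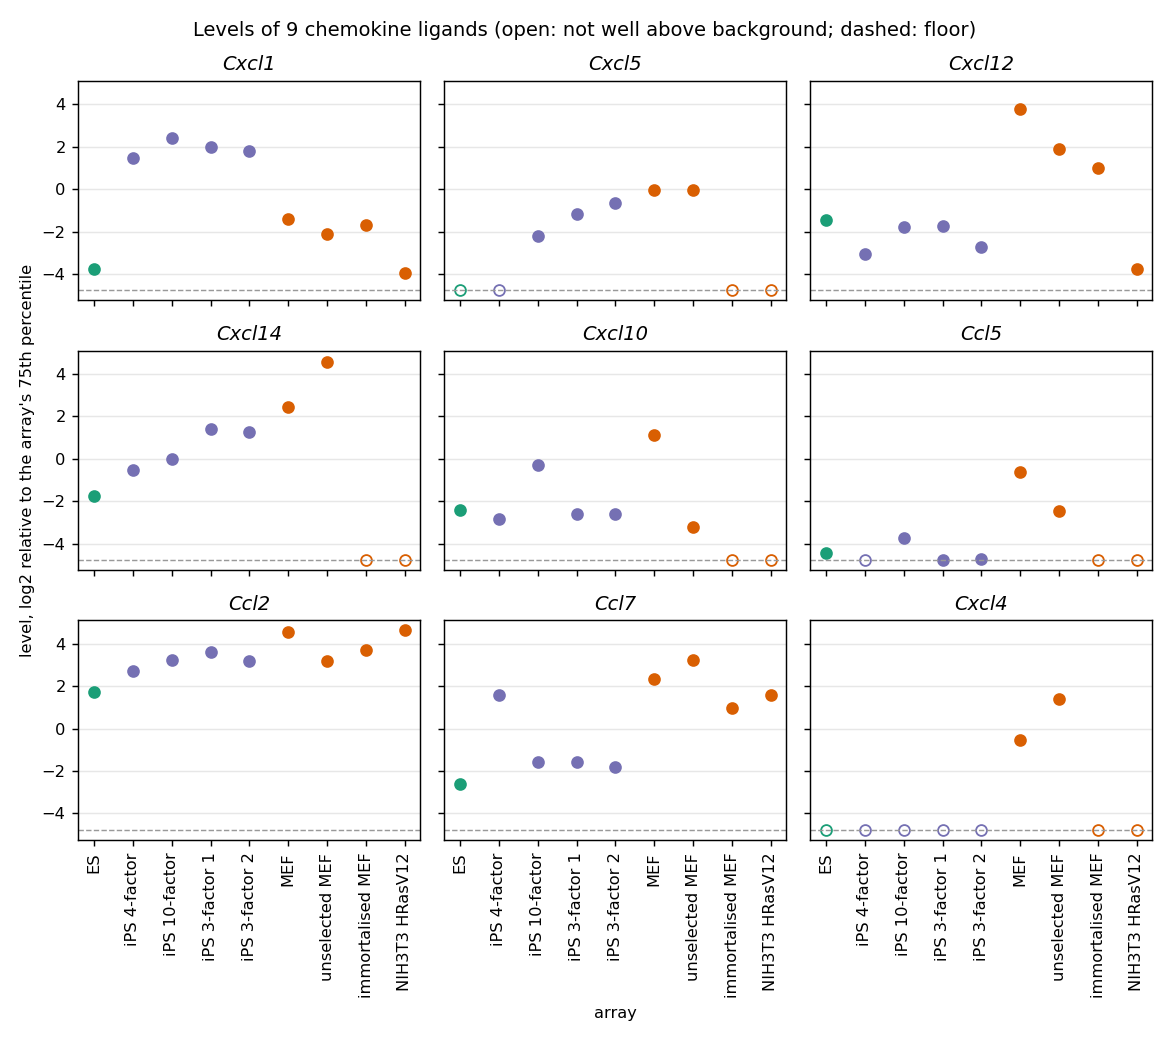
Level of 9 chemokine ligands on each array (log2 relative to the array's 75th percentile), with ES in green, iPS clones in purple and fibroblast-derived samples in orange, and open points for values not well above background. The 4 clones are above all other arrays for Cxcl1 (1.47 to 2.39), whereas for Cxcl12 they lie between -3.06 and -1.72, below the 3 MEF-type samples.

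Cxcl10, the interferon-induced ligand of Cxcr3, stood at 1.13 in MEF and at -3.22 in the unselected MEF, and was not well above background in the immortalised MEF and the NIH3T3 HRasV12 cells. The 3-factor clones had -2.58 and -2.60, the 10-factor clone -0.31, the 4-factor clone -2.86 and ES -2.42. MEF was thus the highest array and the 10-factor clone the next. Against MEF the clones did not pass the threshold (-3.21 ± 1.18, limma adjusted p = 0.162), and did when the 10-factor clone was left out.

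Ccl5, which attracts T cells and is also induced by interferon and by NF-kappaB, was at -0.60 in MEF and -2.44 in the unselected MEF. ES had -4.43, the 3-factor clones -4.78 and -4.72 and the 10-factor clone -3.72, and it was not well above background in the 4-factor clone, the immortalised MEF and the NIH3T3 cells. MEF was again the highest array. The clones differed from MEF by -3.90 ± 0.52, or 15.0-fold lower (limma adjusted p = 0.0268). This Ccl5 call was lost in 8 of 14 alternatives. The 3-factor and 4-factor clones lay at or near the floor, which limits the fold. Ccl20, the ligand of Ccr6, was at -2.33 in MEF, -3.50 in the unselected MEF, with the 10-factor clone at -3.69 and the 4-factor clone at -4.15, and it was at or near the floor on the other 5 arrays.

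Interferon signalling genes were measured beside Cxcl10 and Ccl5. Of 9 tested, 8 were called lower in the clones than in MEF, with Irf7 at the floor in all clones (median -3.18 against 0.04 over all probes). Irf7 passed the filter only through the MEF array, so its call is fixed by the filter and is not read as a result. Isg15, a ubiquitin-like interferon response protein, stood at 3.90 in MEF, 0.76 in the unselected MEF and between -2.55 and -0.86 on the other 7 arrays. The clones differed from MEF in Isg15 by -5.50 ± 0.70 (limma adjusted p = 0.0245). Against the 4 fibroblast-derived samples 0 of 9 passed the threshold (median -1.31). Of all probes, 9.32% were lower than in MEF and 4.73% lower than in the fibroblast-derived samples. The part of this list in the chemokine values was not tested.

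The monocyte attractants Ccl2 and Ccl7, neighbours on chromosome 11, were measured on every array. Ccl2 was at 4.57 in MEF, 3.17 in the unselected MEF, 3.69 in the immortalised MEF and 4.63 in the NIH3T3 HRasV12 cells. The 3-factor clones had 3.63 and 3.19, the 10-factor clone 3.23 and the 4-factor clone 2.74, and ES was lowest at 1.75. The clones differed from the fibroblast-derived samples by -0.82 ± 0.38 (limma adjusted p = 0.217). From MEF they differed by -1.37 ± 0.37, and neither difference passed the threshold. The clones overlapped the fibroblast-derived samples, and the clones exceeded ES by 1.45 ± 0.37, which missed the threshold (limma adjusted p = 0.0925).

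Ccl7 was at 2.33 in MEF, 3.26 in the unselected MEF, 0.98 in the immortalised MEF and 1.57 in the NIH3T3 HRasV12 cells. Among the clones the 4-factor clone had 1.58 but the 10-factor clone -1.57 and the 3-factor clones -1.59 and -1.82, and ES had -2.63. The 4-factor clone thus lay among the fibroblast-derived samples and the other 3 clones lay below them. Without that clone the difference from the fibroblast-derived samples was called.

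Cxcl4, the platelet protein Pf4, was at -0.56 in MEF and 1.38 in the unselected MEF and not well above background on the other 7 arrays. Ccl6, a myeloid cell ligand of the mouse, was at -2.19 in MEF and -3.11 in the unselected MEF, and Ccl4, which attracts monocytes and T cells, at -3.49 and -3.29, with neither well above background elsewhere. These 3 genes therefore marked the same 2 arrays. Against MEF the clones were at least 26.1-fold lower for Cxcl4, at least 8.42-fold for Ccl6 and at least 3.40-fold for Ccl4. These bounds describe the arrays and carry no test, since all 4 clones stood at the floor and MEF is 1 array.

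Ccl3, a macrophage inflammatory protein, was well above background only in the unselected MEF, at -2.24, as were Ccl12 at -3.96 and the lung epithelial ligand Cxcl15 at -3.87. Ccl8, a monocyte attractant, was at -1.87 in the unselected MEF, -1.75 in the NIH3T3 HRasV12 cells and -4.67 in MEF. Of the 24 measured members, 7 were well above background in no clone, as were 9.66% of all measured probes: Ccl3, Ccl4, Ccl6, Ccl8, Ccl12, Cxcl4 and Cxcl15. All 7 were measured in the unselected MEF.

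Leukocyte markers were measured beside these ligands. Of 10, 8 were well above background in the unselected MEF (summed signal 1008% of the 75th percentile), 7 in MEF (112%), 3 or 4 in the clones (74.9% to 110.1%), 4 in ES (65.5%), and 3 each in the immortalised MEF (68.2%) and the NIH3T3 HRasV12 cells (231%). The macrophage genes Lyz2, at 2.04 in the unselected MEF and -2.78 in MEF, and Adgre1, at 0.16 and -2.74, were at the floor on the other 7 arrays. Csf1r, the receptor that macrophages need, was well above background only in the unselected MEF, at -1.75. The defining markers Ptprc and Itgam were at the floor on all 9 arrays. Other markers were not limited to MEF and the unselected MEF, although Cd68, Aif1 and Tyrobp were also highest in the unselected MEF. Cd3e was highest in MEF, at -3.83. Cd68 was between -2.19 and -1.07 in the clones, above MEF at -2.84, and at -0.09 in the unselected MEF. Cd14 was highest in the NIH3T3 HRasV12 cells, at 0.94, and Tyrobp was at 1.22 in the unselected MEF, -3.47 in ES and -3.52 in MEF. Of 7 markers tested against MEF, Adgre1, Lyz2 and Tyrobp were called lower, with all clones at the floor, so that the filter fixes these calls. The part of leukocytes in the chemokine values was not tested.

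**Figure D4:**
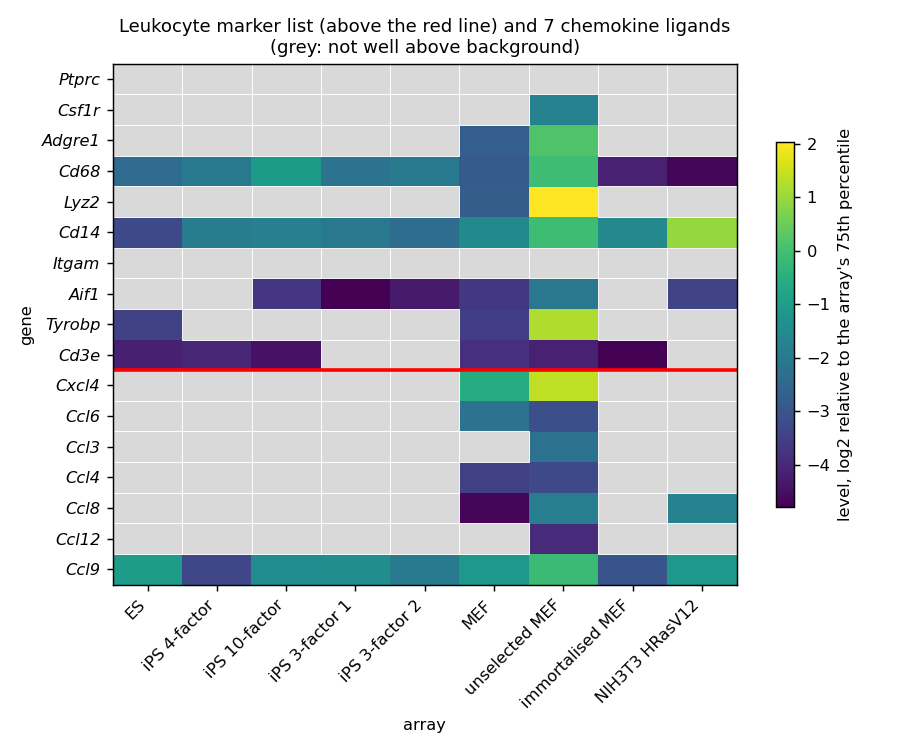
Level of 10 leukocyte markers (above the red line) and 7 chemokine ligands (below it) on the 9 arrays, as log2 relative to the array's 75th percentile, with grey for values not well above background. Cxcl4, Ccl6, Ccl4, Lyz2 and Adgre1 are coloured only in the MEF and unselected MEF columns, while Ptprc and Itgam are grey throughout.

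Ccl9, a myeloid ligand, was at -1.16 in MEF, -0.14 in the unselected MEF, -3.00 in the immortalised MEF and -1.16 in the NIH3T3 HRasV12 cells. ES had -1.05, the 3-factor clones -1.45 and -1.95, the 10-factor clone -1.46 and the 4-factor clone -3.32. The groups overlapped, and it was called in none of the 4 limma comparisons.

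Ccl27a, a skin ligand of Ccr10, was at 1.50 and 1.48 in the 3-factor clones, 1.49 in the 10-factor and 1.60 in the 4-factor clone, against 0.71 in MEF and 0.44 in ES. It was at 1.79 in the unselected MEF, -0.31 in the NIH3T3 HRasV12 cells and at the floor in the immortalised MEF. The clones lay close together, below the unselected MEF and above the other arrays. They exceeded MEF by 0.81 ± 0.09, or 1.75-fold (limma adjusted p = 0.0181), and ES by 1.07 ± 0.08, or 2.11-fold (limma adjusted p = 0.00781). These calls were lost in 8 and 7 of 14 alternatives. Ccl27a has near-identical copies in the mouse genome, and which of them the probe reads was not tested.

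Ccl19, a ligand of Ccr7, was at -2.14 and -1.91 in the 3-factor clones, -3.52 in the 10-factor clone and -3.71 in the unselected MEF, and it was at or near the floor elsewhere. The 3-factor clones exceeded the other 2 clones by 2.13 ± 0.53 (limma adjusted p = 0.175). Ccl21c, another ligand of Ccr7 with near-identical copies, was measured only in the 10-factor clone, at -3.92. Ccl17, which binds Ccr4, was at -3.60 in MEF and between the floor and -4.07 on the other 8 arrays. Its call against MEF (-1.09 ± 0.19, limma adjusted p = 0.0419) was lost in 9 of 14 alternatives.

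Cx3cl1 and Cxcl16 are the chemokines made as membrane-bound proteins. Cx3cl1 was at 1.66 in MEF, 1.62 in the unselected MEF, 1.93 in the immortalised MEF and -1.66 in the NIH3T3 HRasV12 cells. ES had 0.54, the 3-factor clones 0.55 and -0.07, the 10-factor clone 1.06 and the 4-factor clone 0.39. The 3 MEF-type samples were above all clones and ES, and the NIH3T3 cells below them. Cxcl16 was at -1.48 in the 10-factor clone, between -4.34 and -3.80 in the other clones, at -2.86 in ES, -2.72 in MEF and -3.38 in the unselected MEF, and not well above background in the immortalised MEF and the NIH3T3 cells. Neither was called in any of the 4 comparisons.

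Against ES, 4.04% of 13201 probes were called higher and 9.42% lower in the clones. Of 16 tested members 2 were called higher (Cxcl1 and Ccl27a) and 0 lower. The members' median was 0.75, against -0.07 over all probes. The ES array was also the only one of its kind.

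Between the 3-factor clones and the 4- and 10-factor clones, 0.0148% of 13544 probes were called. None of 17 tested members was called by limma, 3 had an unadjusted p under 0.05 (22.7% of all probes did), and with normexp background correction 1 was called (Cxcl14). The 3-factor clones were scanned apart from the others, so scan and number of factors cannot be told apart.

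Single arrays were set against MEF with a threshold of 5-fold and no test. In ES, 0 of 19 measured members were past it upwards, where 6.38% of all measured probes were, and 12 downwards, where 5.63% were. The 12 included Cxcl12 (37.3-fold lower), Ccl7 (31.0-fold), Cxcl14 (18.1-fold), Ccl5 (14.2-fold) and Cxcl10 (11.7-fold). Cxcl1 was 5.19-fold lower in ES than in MEF. In the unselected MEF, 2 of 23 were higher, Ccl3 (at least 6.27-fold) and Ccl8 (6.96-fold), and 1 was lower, Cxcl10 (20.4-fold). The shares over all probes were 3.47% and 1.41%.

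In the immortalised MEF, 0 of 20 members were 5-fold higher than in MEF (1.32% of all probes) and 10 were lower (6.88%). These included Cxcl14 (at least 238-fold), Cxcl10 (at least 96.0-fold) and Cxcl5 (at least 42.7-fold). In the NIH3T3 HRasV12 cells 1 of 20 was higher, Ccl8 (7.55-fold, where 1.62% of all probes were higher), and 11 were lower (5.8%). Among these were Cxcl14 (at least 204-fold), Cxcl12 (190-fold) and Cxcl10 (at least 82.2-fold). The members' median difference from MEF was -2.60 in ES, -2.26 in the immortalised MEF, -2.49 in the NIH3T3 cells and 0.20 in the unselected MEF. Over all probes it lay between -0.01 and 0.09.

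Chemokine receptors were sparse. Of 21 on the array 13 were well above background on at least 1 array, and 4 were tested against the fibroblast-derived samples with 0 called (median -0.12). Against MEF 1 of 4 was called lower, Cxcr6 (median -0.01), and against ES 1 of 4 was called higher and 1 lower (median 0.37). The higher one was Ackr3, a scavenging receptor of Cxcl12, by 4.42 ± 0.54 (limma adjusted p = 0.0213), at -2.98 in ES and between 0.68 and 1.90 in the clones. The lower one was Ccr7, which was well above background only in ES, at -3.47. For Cxcr6 and Ccr7 all 4 clones were at the floor and the other side was 1 array, so these calls are fixed by the filter. Of all probes, 4.04% were called higher in the clones than in ES. Cxcr4 was well above background only in the 4-factor clone, at -1.86.

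Receptors that lie upstream of chemokine induction were lower in the clones in part. Of 11 tested against the fibroblast-derived samples 0 rose and 3 fell (median -1.02): the interleukin 1 receptor Il1r1 (-3.76 ± 0.35), the interleukin 33 receptor Il1rl1 (-2.80 ± 0.64) and the tumour necrosis factor receptor Tnfrsf1a (-1.79 ± 0.23). The limma adjusted p-values were 0.00156, 0.0352 and 0.00482. Of all probes, 4.73% fell against the fibroblast-derived samples, 9.32% fell against MEF and 4.04% rose against ES. Il1r1 was between -3.86 and -2.68 in the clones and between 0.14 and 1.16 in the fibroblast-derived samples, without overlap. Against MEF 4 of 11 fell (median -1.17), and against ES 1 rose, Tnfrsf1a (median 0.33).

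Among 18 tested genes of inflammatory signalling, 2 rose and 1 fell in the clones against the fibroblast-derived samples (median -0.65). The shares over all probes were 4.19% and 4.73% there, 9.32% for a fall against MEF and 4.04% for a rise against ES. Csf2, a growth factor of granulocytes and macrophages, was at -1.90 and -1.64 in the 3-factor clones, -2.41 in the 10-factor and -3.78 in the 4-factor clone. It was at the floor on the other 5 arrays and passed the filter only through the clones, so its call is not read as a result. Zfp36, which destabilises cytokine messages, rose by 1.11 ± 0.26 (limma adjusted p = 0.0356), and Csf1, the macrophage growth factor, fell by 2.52 ± 0.49 (limma adjusted p = 0.0197). For Csf2, as for Cxcl1, all 4 clones were above all other arrays, which for Csf2 describes the values and carries no test. Against MEF 1 of 18 fell, Nfkbiz (median -0.90). Against ES 4 of 18 rose and 0 fell (median 0.76): Rela, a subunit of NF-kappaB, by 2.06 ± 0.09, Il6, Nfkbiz and Cebpb. Il6 was at the floor in ES and passed that filter only through the clones, so its call is not read as a result.

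Of the remaining lists, Mif, a cytokine with chemokine-like functions outside the naming rule, was between 5.54 and 6.93 on all 9 arrays and was higher in the clones than in MEF by 0.87 ± 0.13 (limma adjusted p = 0.0307). Of 5 ES cell markers 2 rose against the fibroblast-derived samples (Pou5f1 and Tdh), and 1 fell against ES (Zfp42). Tdh was well above background in none of the fibroblast-derived samples and Pou5f1 only in the unselected MEF. Both passed that filter only through the clones, so their calls are not read as a result. All 5 ES cell markers were well above background in ES and in the 4- and 10-factor clones, and 3 in each 3-factor clone. Of 5 endothelial markers 1 could be tested against the fibroblast-derived samples and was called higher, Tek. It was well above background in none of these samples and passed the filter only through the clones, so its call is not read as a result. Emcn was called lower than in MEF and Pecam1 lower than in ES, both with all clones at the floor, so that the filter fixes these calls.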

How the data were processed

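RNA of 9 mouse samples was measured on single-colour 22k arrays. Per the file headers, the authors' scanner intensity values came from Agilent Feature Extraction 8.5.1.1, and the processed signal used here was background-subtracted by it. The authors' value table held the same intensity within 0.5% and served as an alternative. Spots called outliers and 736 control spots were left out. Each array was divided by its 75th percentile (167 to 300 in signal), floored at 3.63% of it, the highest of the arrays' lowest signals well above background (multiple 2.6, per the file headers), and log2 was taken. Between 52.4% and 59.6% of probes were well above background on an array.

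Probes well above background on 50% or more of either group's arrays were tested with limma 3.58.1 in R 4.3.3 (lmFit, eBayes), two-sided, Benjamini-Hochberg adjusted over all probes, at 0.05. Where a side was not well above background, folds are bounds, taken per array against the probe's own signal or, if higher, the array's lowest one well above background, so that a bound can exceed the difference at the floor. The fit was tested on simulated data. Probes were named through RefSeq (GRCm38.p6) accessions (14224 probes, with 73 by another accession) or deposited descriptions (712), and 5859 stayed unnamed. No build is given for the probes in the sources used here, so their coordinates are not printed. Scans came from the file headers: 1 held ES, MEF and the 4- and 10-factor clones, another the 3-factor clones, another the immortalised MEF and NIH3T3 cells and another the unselected MEF.

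The members and gene lists (chemokine receptors, other chemokine names, inflammatory signalling, upstream receptors, interferon, fibroblast, leukocyte, endothelial and ES cell markers) were chosen with earlier results of these data known. Every member is accounted for. Members called in a comparison, or spanning at least 5-fold over the arrays, are given with each array's value. Differences of members are printed only where called or where the unadjusted p was under 0.1, or where scan as a block made a call. Alternatives were the value table, normexp (offset 50), quantile and median scaling, filters, the floor, scan, the spread, the 3-factor pair averaged and leaving out each array. The transgene of the immortalised MEF and 2 genes of the lists are not reported here.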

Additional observations from a re-analysis of the deposited data

Results flagged for a closer look

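In 4 of 16 groups of 4 arrays examined, 1 array lay far from the other 3, with a gap to the nearest over 0.829 of the group's range, where chance gives about 1 group in 20. Among the iPS clones the 4-factor clone stood apart for Ccl7, at 1.58, and for Ccl27a, at 1.60, where the range of the clones is narrow. The 10-factor clone stood apart for Cxcl10, at -0.31. Among the fibroblast-derived samples the NIH3T3 HRasV12 cells stood apart for Cx3cl1, at -1.66.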

How the results depend on the processing

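Against the fibroblast-derived samples, Cxcl14 (1.18, not called) turned to -2.71 with scan as a block and within scan 1, and to -0.20 without the immortalised MEF or without the NIH3T3 cells (-0.20 to 2.91 with an array left out). Ccl20 (-0.50, not called) turned to 0.0048 without MEF (-0.81 to 0.0048 with an array left out). The other member differences printed kept their direction under the alternatives run. Numbers of calls moved more. Against the fibroblast-derived samples, 1154 probes were called, 461 with the 3-factor pair averaged, 641 with no filter, 739 with scan as a block and 0 within scan 1 (412 to 1587 with an array left out). Members called were 1, but 2 with the lower floor (-6.78 on the log2 scale, Ccl8 added) or median scaling (Ccl7 added), 6 with scan as a block and 0 within scan 1 (1 to 2 with an array left out). Against MEF, 1830 probes were called, 348 with the pair averaged, 1074 with the lower floor, 947 with normexp, 198 with the spread over all 9 arrays and 0 within scan 1 (318 to 1895 with an array left out). Members called were 8, but 3, 5, 4, 0 and 0 under these settings (3 to 9 with an array left out). Against ES, 1777 probes were called, 508 with the pair averaged, 736 with the lower floor, 1012 with median scaling, 493 with normexp, 874 with the wider spread and 0 within scan 1 (475 to 2082 with an array left out). Members called were 2, but 1 with the pair averaged, the lower floor, normexp or the wider spread, and 0 within scan 1 (1 to 2 with an array left out). Between clones, 2 probes were called, 0 with the lower floor or median scaling, 40 with no filter, 386 with normexp and 7 with quantile scaling, and 0 members, but 1 with normexp. At 5-fold against MEF, normexp left 4 members lower in ES, 5 in the immortalised MEF and 4 in the NIH3T3 HRasV12 cells, and 0 higher in the last and in the unselected MEF. At 10-fold 7, 6 and 6 were lower in these samples, and 0 were higher in the NIH3T3 cells and the unselected MEF. At 3-fold the unselected MEF had 4 higher and 3 lower. Fewer arrays enter the averaged, within-scan and left-out settings, and the cause of the other shifts was not tested. Values near background limit Ccl5, Ccl17, Ccl19, Ccl20 and the members measured on 1 array. No paired analysis was possible because the groups compared share fewer than 2 replicate numbers.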

Other observations

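Ccl27a was at the floor in the immortalised MEF and between -0.31 and 1.79 on the other 8 arrays. Il11ra1, a receptor gene that overlaps Ccl27a on chromosome 4 in the RefSeq table and was chosen after its values were seen, was at -2.09 in the immortalised MEF. Its level was 1.74 in ES, 3.69 in MEF, 2.16 in the NIH3T3 HRasV12 cells and 4.90 in the unselected MEF. The 3-factor clones had 2.35 and 1.93, the 10-factor clone 2.09 and the 4-factor clone 2.56. Both genes were thus lowest in the same line, and whether the probes share sequence or copies was not tested.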
